A study of Mus musculus with 30 samples.

Results

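The kidney levels of 7 genes of proximal tubule endocytosis were examined: *Lrp2*, *Cubn*, *Amn*, *Dab2*, *Clcn5*, *Lrpap1* and *Fcgrt*. The genes were taken by symbol from a list of receptors and their partners, with earlier results of these data known. All 7 were found among the 54838 genes of the kidney table, and all 7 were among the 17120 that passed the filter on low counts. RNA-seq was measured in kidney of 3 groups of C57BL/6J male wild-type mice, with 5 libraries per group, 1 per mouse. From the age of 6 weeks, every animal was housed at thermoneutrality (30–32 °C), where no extra heat production is needed. From Week 7 the CD group received chow diet with water by gavage, the WD group western diet with water, and the WD + CHP group western diet with cyclo(His-Pro), a cyclic dipeptide. CHP was given at 20 mg/kg, 3 times a week, until tissues were collected in Week 24, when the animals had fasted for 3 h. CHP was thus compared on western diet and not on chow. Gastrocnemius muscle, with 5 libraries per group as well, served as a tissue without tubules.

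The proximal tubule takes back nearly all protein that passes the glomerular filter. Megalin (*Lrp2*) and cubilin (*Cubn*) are very large receptors of the brush border that bind albumin, vitamin-binding proteins and many other ligands. Cubilin has no transmembrane segment and reaches the surface only with amnionless (*Amn*). The adaptor *Dab2* links megalin to the clathrin coat, the chaperone RAP (*Lrpap1*) keeps newly made megalin from binding ligands too early, and the chloride/proton exchanger ClC-5 (*Clcn5*), lost in Dent disease, serves the acidification of endosomes. The neonatal Fc receptor heavy chain (*Fcgrt*) rescues albumin and IgG from breakdown.

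Total counts ranged from 37189192 to 38211422 per kidney library. All 18 of 18 proximal tubule markers passed the filter in kidney, against 6 of 18 in gastrocnemius. The labels name frozen liver as the source of the RNA while the tissue field says kidney, and the markers go with kidney. The albumin transcript was at 424 CPM in WD replicate 5 and 81.4 CPM in CD replicate 1, and at 8.98 to 27.8 CPM in the other libraries. CPM is the count of a gene scaled to the size of its library, with TMM scaling. In bulk tissue, fewer cells of a type and less RNA per cell cannot be told apart.

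*Lrp2* lies on chr2:69424340-69586065 and *Cubn* on chr2:13276338-13491813, both on the minus strand of GRCm38. Their exons cover 16701 and 14935 bases. *Amn* (chr12:111271095-111276426, plus strand) covers 1843 bases and *Clcn5* (chrX:7153810-7319358, minus strand) 11452. *Dab2* (chr15:6299788-6440712, plus strand), *Lrpap1* (chr5:35091501-35105766, minus strand) and *Fcgrt* (chr7:45092990-45103851, minus strand) cover 7342, 4116 and 2102 bases. Thus *Clcn5* is a long transcript too. Genes of the opposite strand share 368 exonic bases with *Cubn* and 211 with *Dab2*, but had 1 to 15 counts per library, against at least 19983 for *Cubn*. The strand setting of the counts is not given in the sources used here.

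Sequences just upstream of the start are shown for the 3 genes whose levels the results turn on and for *Amn*, the partner of *Cubn*, since the partners are read from separate promoters. They are from RefSeq (GRCm38.p6), which had an entry for all 7 genes, and are written in the direction of transcription. *Cubn* is at chr2:13491877-13492126, *Amn* at chr12:111270846-111271094, *Lrp2* at chr2:69586066-69586279 and the outer start of *Clcn5* at chrX:7319359-7319608. Capitals mark the GC box GGGCGG on either strand.
Cubn: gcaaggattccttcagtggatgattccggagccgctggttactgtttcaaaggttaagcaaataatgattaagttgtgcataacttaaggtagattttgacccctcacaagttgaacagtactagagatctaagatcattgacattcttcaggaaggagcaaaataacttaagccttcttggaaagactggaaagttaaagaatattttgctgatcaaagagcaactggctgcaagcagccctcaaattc
Amn: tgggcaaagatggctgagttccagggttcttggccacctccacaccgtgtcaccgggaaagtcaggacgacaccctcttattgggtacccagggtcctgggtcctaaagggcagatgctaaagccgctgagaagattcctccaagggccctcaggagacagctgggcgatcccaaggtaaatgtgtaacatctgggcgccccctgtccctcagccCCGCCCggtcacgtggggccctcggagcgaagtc
Lrp2: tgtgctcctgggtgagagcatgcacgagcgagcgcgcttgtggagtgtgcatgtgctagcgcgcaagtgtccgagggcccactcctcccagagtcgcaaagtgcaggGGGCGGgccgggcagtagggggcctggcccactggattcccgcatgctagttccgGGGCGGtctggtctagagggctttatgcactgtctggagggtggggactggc
Clcn5: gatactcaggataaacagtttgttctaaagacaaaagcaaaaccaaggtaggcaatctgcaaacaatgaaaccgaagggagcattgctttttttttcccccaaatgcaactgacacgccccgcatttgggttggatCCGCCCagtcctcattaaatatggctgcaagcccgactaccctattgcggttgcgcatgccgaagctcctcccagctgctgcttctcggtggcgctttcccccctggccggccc
The stretch of *Lrp2* holds 2 GC boxes, those of *Amn* and *Clcn5* hold 1 each, and that of *Cubn* holds 0. Its content of G and C is 39.6%, against 65.9% for *Lrp2*, 61.0% for *Amn* and 52.4% for *Clcn5*. GGGCGG, read on both strands, was in 32.7% of all 32851 windows of 250 bases before a start. AGGTCA, a nuclear receptor half-site, was in 14%, and TATAAA in 12.4%. Neither was found in the stretches shown, which says only that the letters are not there, so no matches of different motifs overlapped. TATAAA was found 172 bases before another start of *Clcn5*, which is not shown.

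Levels between genes were compared per length, as CPM divided by exonic length in kb (RPKM, mean ± SD over 15 libraries). *Lrp2* was highest, at 151 ± 12.7. *Dab2* followed at 106 ± 6.78, *Lrpap1* at 93.4 ± 4.69 and *Fcgrt* at 84.5 ± 3.39. *Amn* stood at 52.7 ± 2.58, *Cubn* at 43.6 ± 5.25 and *Clcn5* at 10.1 ± 1.14. The ranges of *Dab2* and *Lrpap1*, of *Lrpap1* and *Fcgrt*, and of *Amn* and *Cubn* overlapped, so the order of these neighbours is not set. The receptor *Cubn* and its partner *Amn* thus had close levels per length. With the longest transcript as length, *Dab2* (168) stood above *Lrp2* (164), and *Cubn* (57.8) above *Amn* (57.1).

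The question of the first comparison is what western diet did to these genes. *Cubn* was the only one of the 7 that passed the test, and it was downregulated, with a fitted change of -19.7% (log2 fold change -0.32, SE 0.067, adjusted p = 0.00752). Its CPM was 752, 682, 668, 800.1 and 758 in CD replicates 1 to 5. In WD it was 537, 684, 541, 582 and 596. WD replicate 2 lay within the CD range and the other WD libraries below it. The fall held in all 10 fits that left out 1 library, from -0.37 to -0.28, and in all 10 other settings. Without WD replicate 5 or CD replicate 1, where albumin was high, it was -0.32 and -0.30. Of all genes tested, 9.65% were called in either direction and 5.03% were called lower, so 1 of 7 is near the background.

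*Lrp2* had 2598, 2612, 2492, 2603 and 2409 CPM in CD. In WD it had 2139.7, 2549, 2315, 2300.3 and 2281. Its log2 fold change in WD vs. CD was -0.13 (SE 0.050), which did not pass the test (adjusted p = 0.0987). WD replicate 2 was again the highest of its group, and without it the adjusted p was 0.0437. The other 9 fits without 1 library did not call it, with an adjusted p of up to 0.216. It was 0.0443 with scaling by total count and 0.0287 after correction for length and GC content (0.0397 with the block as well), and up to 0.177 in the settings that did not call it.

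**Figure D1:**
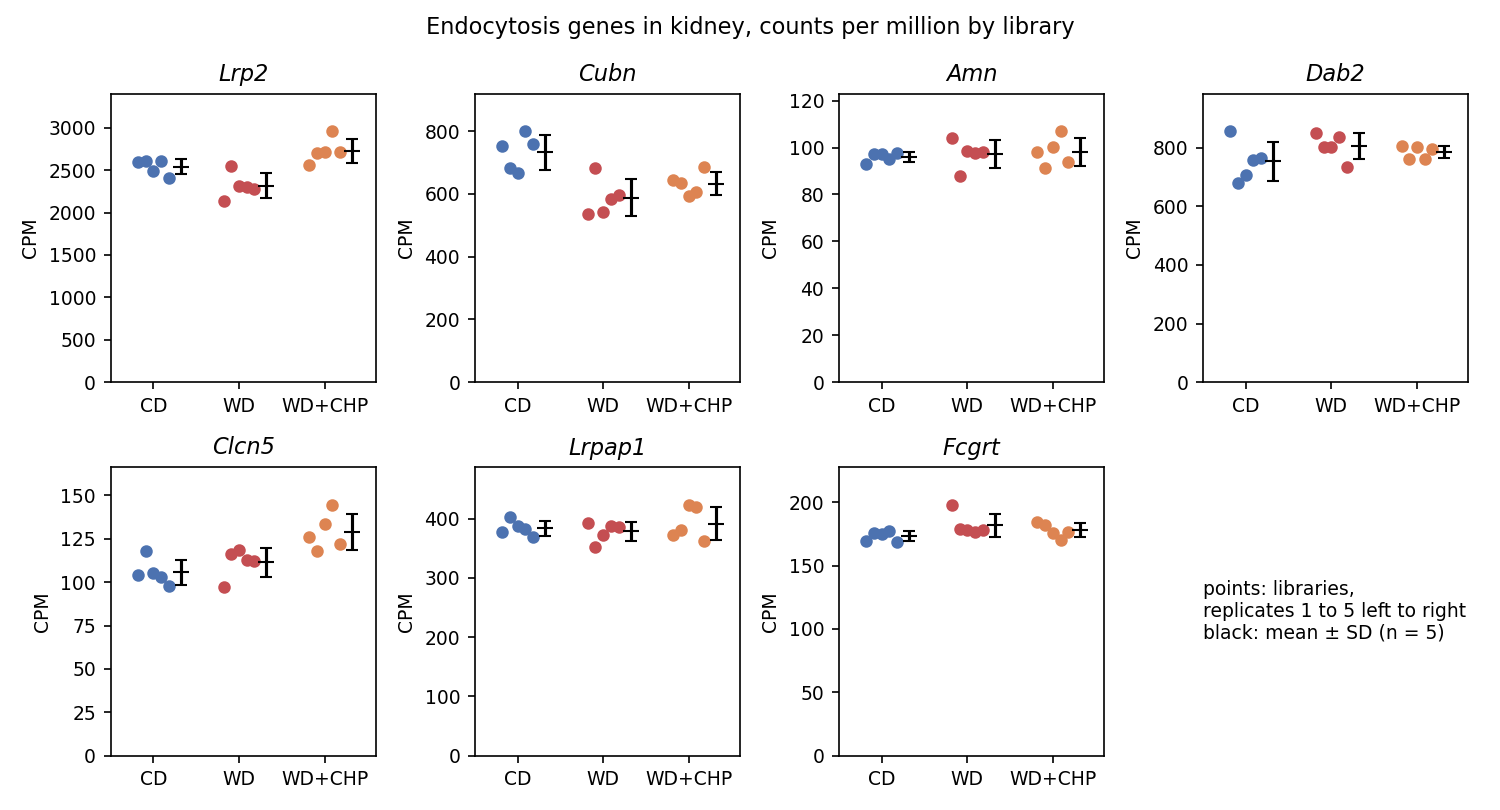
CPM (linear axes from 0) of the 7 genes in each kidney library by group, with the group mean ± SD (n = 5) in black. *Cubn* was at 537 to 684 in WD against 668 to 800.1 in CD, and *Lrp2* in WD + CHP, at 2563 to 2960.5, lay above every WD library.

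The partners did not pass the test in WD vs. CD. The log2 fold change was 0.02 for *Amn* (SE 0.047, adjusted p = 0.866), 0.10 for *Dab2* (SE 0.055, adjusted p = 0.300), 0.08 for *Clcn5* (SE 0.063, adjusted p = 0.486), -0.02 for *Lrpap1* (SE 0.048, adjusted p = 0.848) and 0.07 for *Fcgrt* (SE 0.038, adjusted p = 0.258). *Amn* was at 92.8, 97.4, 97.3, 95.1 and 97.6 CPM in CD and at 104, 87.8, 98.3, 97.7 and 97.9 in WD. *Dab2* ranged from 681 to 856 CPM in CD, from 734 to 849 in WD and from 762 to 806 in WD + CHP. *Lrpap1* ranged from 369 to 402, from 353 to 393 and from 362 to 424 in the same order, and *Fcgrt* from 168 to 177, from 177 to 198 and from 170.3 to 185. Without WD replicate 1, the highest for *Fcgrt*, its log2 fold change in WD vs. CD was 0.04 (adjusted p = 0.538). The CD and WD ranges of *Amn*, *Dab2*, *Lrpap1* and *Fcgrt* overlapped, and the sign for *Amn* and *Lrpap1* turned in some settings.

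The second comparison asked what CHP did on western diet. None of the 7 passed the main test, where 0.105% of all genes tested did. At an unadjusted p under 0.05 there were 2 of 7, *Lrp2* and *Clcn5*, against 11.4% of all genes, and limma-voom called 0 and DESeq2 1. *Lrp2* had 2563, 2698, 2716, 2960.5 and 2710.4 CPM in WD + CHP. All 5 were above all 5 WD libraries, the lowest by a small margin over WD replicate 2, which 1.52% of all genes tested showed (2.36% for either direction). The log2 fold change was 0.24 (SE 0.050, adjusted p = 0.0722), a fitted change of 17.8%. DESeq2 gave an adjusted p of 0.00078. In edgeR fits without 1 library, the adjusted p was 0.0214 without WD replicate 2 and 0.0474 without WD + CHP replicate 1. The other 8 did not call it, with an adjusted p of up to 0.186, and neither did the settings other than DESeq2, with up to 0.141.

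*Clcn5* was at 126, 118, 134, 145 and 122 CPM in WD + CHP and at 97.5, 116, 119, 113 and 112 in WD. The highest WD library passed the lowest WD + CHP library by a small margin. Its log2 fold change was 0.21 (SE 0.063, adjusted p = 0.194). *Cubn* had 644, 635, 593, 605 and 686 CPM in WD + CHP, and its log2 fold change was 0.11 (SE 0.067, adjusted p = 0.588). The remaining genes, *Amn*, *Dab2*, *Lrpap1* and *Fcgrt*, had log2 fold changes of 0.01, -0.04, 0.05 and -0.03.

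In WD + CHP vs. CD, which shares the WD + CHP libraries with the second comparison and the CD libraries with the first, 2 of 7 were called against 12.1% of all genes (6.25% higher and 5.84% lower). *Clcn5* rose by 22.0% (log2 fold change 0.29, SE 0.063, adjusted p = 0.00872). Its CPM in CD was 104, 118, 105, 103 and 98.0, below every WD + CHP library, an ordering that 4.41% of all genes tested showed (8.34% for either direction). The call held in all 10 fits without 1 library. *Cubn* differed from CD by -13.6% (log2 fold change -0.21, SE 0.067, adjusted p = 0.0491). That call was kept without CD replicate 3 or WD + CHP replicate 5 and lost in the other 8 fits without 1 library, where the adjusted p reached 0.130. It was also lost with DESeq2's size factors (0.0525) or no filter (0.0555) and kept in the other 8 settings, with the smallest adjusted p after correction for length and GC content (-0.27, adjusted p = 0.00922). *Lrp2* had a log2 fold change of 0.10 (SE 0.050, adjusted p = 0.195).

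**Figure D2:**
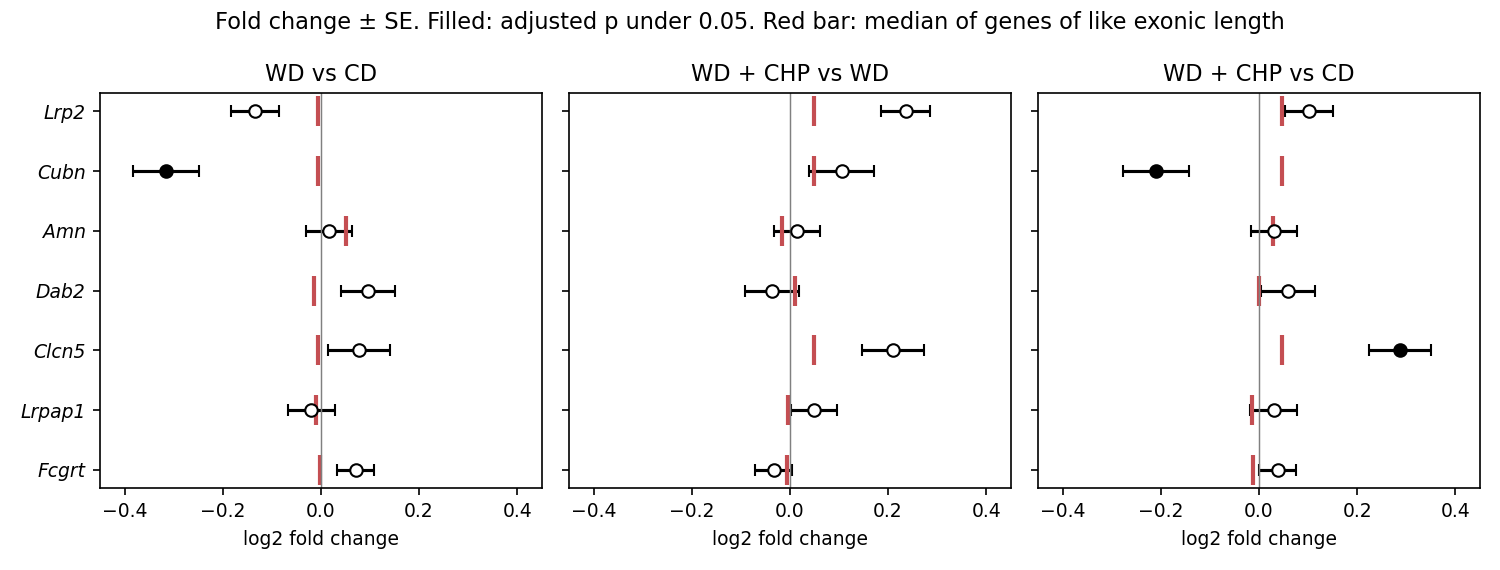
Log2 fold change ± SE of the 7 genes in the 3 kidney comparisons. Filled points have an adjusted p under 0.05 and red bars give the median of genes of like exonic length, so *Cubn* (-0.32 in WD vs. CD and -0.21 in WD + CHP vs. CD) can be set against genes of its own length.

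The proximal tubule markers were looked at beside these results. Summed over the list, CD libraries held 44838 to 47529 CPM, WD libraries 41736 to 45556 and WD + CHP libraries 45674 to 48945. The WD libraries lay below the WD + CHP libraries without overlap and overlapped CD. *Kap*, an androgen-regulated gene of this segment, held much of the sum, with a mean of 20569 CPM (CD), 16957 CPM (WD) and 20490.4 CPM (WD + CHP). Gene by gene, 9 of the 18 markers had a higher fitted level in WD + CHP than in WD (median log2 fold change -0.0024, against -0.0058 over all genes), and *Kap* differed by 0.27 (edgeR, adjusted p = 0.180). In WD vs. CD 4 of the 18 were higher and 3 lower, *Kap* among the latter, where 9.65% of all genes were called and 5.03% were called lower. *Miox*, of inositol breakdown, and *Slc13a3*, a dicarboxylate transporter, rose (log2 fold change 0.36 and 0.43), while *Slc27a2*, a fatty acid transporter, fell (-0.23). Mitochondrial genes took a median of 18.6% (CD), 19.0% (WD) and 20.7% (WD + CHP) of counts. The part of either in the results on *Cubn*, *Lrp2* and *Clcn5* was not tested.

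Ratios between partners were taken within each library, which removes the scaling between libraries. *Lrp2* over *Cubn* per kilobase was 3.12 ± 0.256 for CD, 3.53 ± 0.187 for WD and 3.87 ± 0.362 for WD + CHP (n = 5). WD + CHP, from 3.53 to 4.38, did not overlap CD, from 2.84 to 3.42, whereas WD overlapped both. *Cubn* over *Amn* was 0.942 ± 0.0840, 0.753 ± 0.125 and 0.800 ± 0.0861 in the same order. *Lrp2* over its chaperone *Lrpap1* was 1.64 ± 0.0504, 1.51 ± 0.163 and 1.72 ± 0.0957. These are descriptions, with no test.

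**Figure D3:**
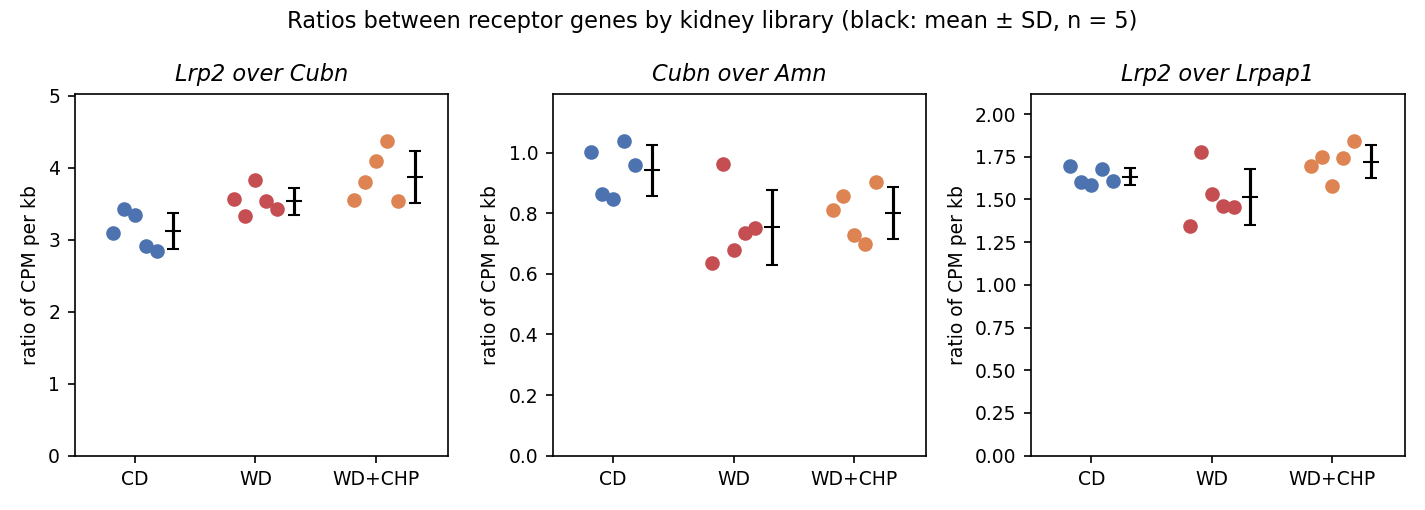
Ratio of CPM per kb of exon in each kidney library by group for *Lrp2* over *Cubn*, *Cubn* over *Amn* and *Lrp2* over *Lrpap1*, with mean ± SD (n = 5) in black. *Lrp2* over *Cubn* ran from 2.84 to 3.42 in CD and from 3.53 to 4.38 in WD + CHP.

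The long receptors were then set beside the other 5 genes. The mean log2 fold change of *Lrp2* and *Cubn* minus that of the others was -0.27 in WD vs. CD, 0.13 in WD + CHP vs. WD and -0.14 in WD + CHP vs. CD. Per library, this difference was 0.139 ± 0.0632 (CD), -0.136 ± 0.140 (WD) and -0.00350 ± 0.0770 (WD + CHP) (log2, centred on the mean of all libraries, n = 5). WD replicate 2 was highest in WD, at 0.0866, and lay within CD. After correction for length and GC content the difference was -0.27 in WD vs. CD, 0.064 in WD + CHP vs. WD and -0.20 in WD + CHP vs. CD. Against only the partners under 5 kb (*Amn*, *Lrpap1* and *Fcgrt*) it was -0.25, 0.16 and -0.087 in the same order. Among genes of mean log2 CPM of at least 3 (n = 9575), fold change went with exonic length in WD + CHP vs. WD (Pearson r = 0.182 across genes, which are not independent), less so in the other comparisons (-0.0633 and 0.0490). Genes of 10 kb and over had a median log2 fold change of -0.0055 in WD vs. CD, 0.050 in WD + CHP vs. WD and 0.048 in WD + CHP vs. CD. Of the 18 genes called in WD + CHP vs. WD, 16 were in that class. That count of 18 changed with single libraries. Leaving out any one of WD replicates 1, 4 and 5 and WD + CHP replicates 3 and 4 left 0 genes called, as did a fit of only the 2 groups compared. The fit lacking WD replicate 3 called 16, that lacking WD replicate 2 called 97, and those lacking WD + CHP replicates 1, 2 and 5 called 45, 7 and 47. For WD + CHP vs. CD, 26.1% of the genes of 10 kb and over with a mean log2 CPM of at least 3 were called, 221 higher and 66 lower.

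Against the median of their length class, *Cubn* stood at -0.31 in WD vs. CD and *Lrp2* 0.19 higher in WD + CHP vs. WD. *Clcn5* stood 0.24 higher in WD + CHP vs. CD. After correction for length and GC content, *Cubn* in WD vs. CD was -0.32 (adjusted p = 0.00331) and *Clcn5* in WD + CHP vs. CD 0.24 (adjusted p = 0.0100). *Lrp2* in WD + CHP vs. WD was 0.19 (adjusted p = 0.0953). In these comparisons the correction made the values of *Lrp2* and *Clcn5* smaller and left that of *Cubn* as it was. Elsewhere *Cubn* went from -0.21 to -0.27 in WD + CHP vs. CD and from 0.105 to 0.048 in WD + CHP vs. WD. *Lrp2* in WD vs. CD went from -0.134 to -0.141.

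**Figure D4:**
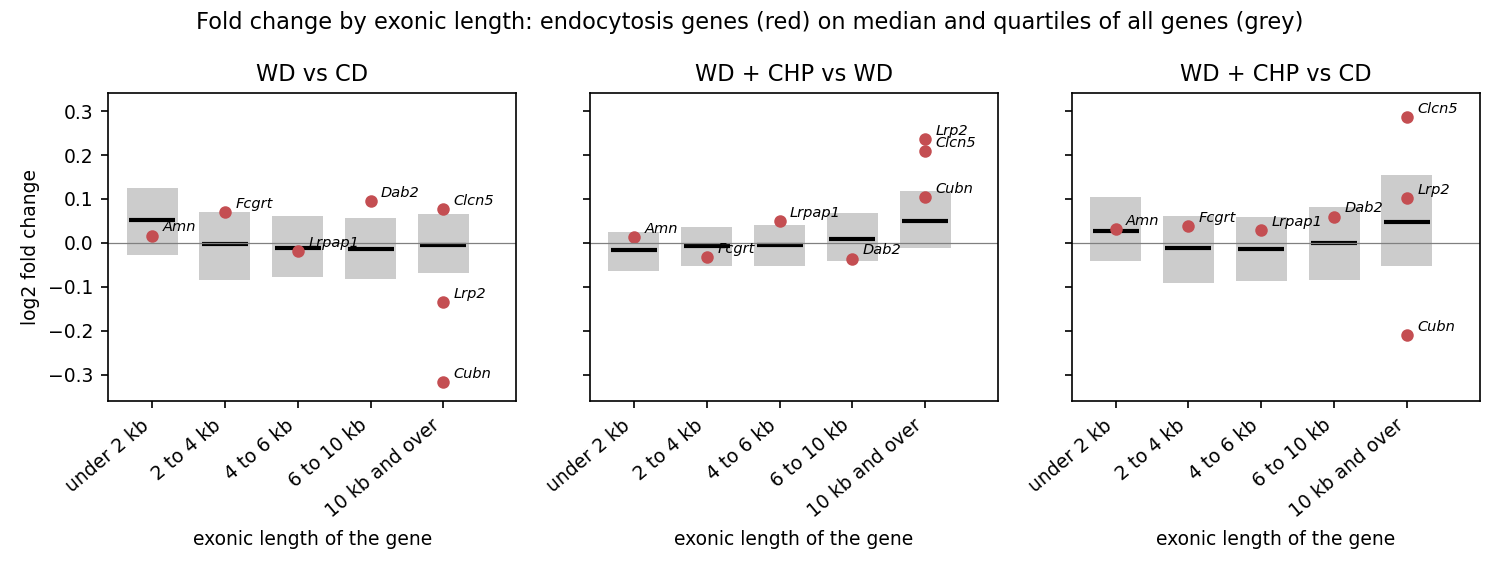
Log2 fold change by class of exonic length. Grey boxes are the quartiles and black bars the median of all genes of mean log2 CPM of at least 3, and red points are the 7 genes. The median in WD + CHP vs. WD rises to 0.050 at 10 kb and over, where *Lrp2* (0.24) and *Clcn5* (0.21) lie.

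Other genes of the same route were counted in 7 lists, chosen with earlier results of these data known. They hold 125 genes, of which 124 were tested. In WD vs. CD 20 were higher and 7 lower (21.8%, against 9.65% of all genes). In the clathrin list 3 of 19 rose (log2 fold change in brackets), the assembly protein *Picalm* (0.17, SE 0.041), the light chain *Cltb* (0.20, SE 0.056) and the heavy chain *Cltc* (0.13, SE 0.039). In endosomal acidification 6 of 22 rose and 0 fell, among them the proton pump subunits *Atp6v1g1* (0.27, SE 0.053), *Atp6v1d* (0.21, SE 0.052) and *Atp6v0d1* (0.15, SE 0.033), and the exchanger *Clcn3* (0.17, SE 0.046). In sorting and recycling 1 of 23 rose, the retromer subunit *Vps26a* (0.11, SE 0.032), and 2 fell, *Rab11fip3* (-0.24, SE 0.045) and *Rab11b* (-0.20, SE 0.041), both of recycling endosomes. Markers of the thick ascending limb and distal tubule were higher in 4 of 8 and lower in 0 in WD vs. CD (median log2 fold change 0.18), among them the cotransporter *Slc12a3* (0.24, SE 0.052) and the calcium-binding *Calb1* (0.37, SE 0.073). Their sum was 4179.9 to 4699.9 CPM in CD and 4237 to 4808 in WD, which overlap, and none of the 8 was at 0 in any library. Of 6 fibroblast markers 2 were higher, *Col1a1* and *Col1a2*. The part of these cells in the counts of the lists was not tested.

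Of the lysosome list 3 of 20 rose and 1 fell. *Lipa*, the acid lipase, rose by 0.37 (SE 0.079), the lysosomal regulator *Tfeb* by 0.29 (SE 0.062) and the protease *Ctsl* by 0.17 (SE 0.046). Of other receptors 3 of 17 rose, the transferrin receptor *Tfrc* (0.72, SE 0.143), *Lrp1* (0.39, SE 0.114) and *B2m*, the light chain that pairs with the *Fcgrt* product (0.23, SE 0.061), and *Lrp6* fell (-0.27, SE 0.057). Among ligands and vitamin handling 3 of 13 rose and 2 fell. The vitamin D receptor *Vdr* fell by 0.50 (SE 0.062) and the folate receptor *Folr1* by 0.15 (SE 0.038). *Cyp27b1*, which makes active vitamin D, rose by 2.49 (SE 0.422) from 2.13 ± 1.27 CPM to 12.0 ± 6.94, and *Ttr*, carrier of thyroxine and of the retinol-binding protein, by 0.85 (SE 0.189). The part of WD replicate 5, where the albumin transcript was at 424 CPM, in the rise of *Ttr* was not tested. Among the transcription factors 1 of 10 rose and 1 fell. The gene that rose was *Esrra*, a regulator of mitochondrial genes (0.27, SE 0.058). All have an adjusted p under 0.05 in edgeR.

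With CHP on western diet (WD + CHP vs. WD) 0 of 124 were called by edgeR and limma-voom and 5 by DESeq2, with 21 at an unadjusted p under 0.05. Over all genes tested 0.105% were called by edgeR, DESeq2 called 194 of 17120, and 11.4% had an unadjusted p under 0.05. Against CD, 20 of the WD + CHP values were higher and 8 lower (22.6%, against 12.1%). With total count scaling this balance turned over, to 14 higher and 17 lower. By class of exonic length, 10.6% to 26.1% of genes of mean log2 CPM of at least 3 were called in the main fit. *Cltc* (0.22, SE 0.039) and *Picalm* (0.22, SE 0.041) rose, and *Hip1r*, of the coat and actin, fell (-0.21, SE 0.046). Of the acidification list 6 of 22 rose and 0 fell, as many as in WD vs. CD. Of the sorting list 2 of 23 rose and 1 fell. *Eea1*, of early endosomes, rose by 0.37 (SE 0.059) and the lipid kinase *Pikfyve* by 0.42 (SE 0.066), and *Rab11b* fell by 0.23 (SE 0.041). Of the lysosome list 4 of 20 rose and 0 fell, *Lipa* by 0.41 (SE 0.079) and the membrane protein *Lamp1* by 0.15 (SE 0.048) among them. Of other receptors *Tfrc* rose by 0.76 (SE 0.143) and *Vldlr*, a relative of megalin, by 0.28 (SE 0.057), while *Lrp5* fell by 0.23 (SE 0.055) and *Lrp10* by 0.15 (SE 0.038). *Clcn3* rose by 0.25 (SE 0.046). Of ligands and vitamin handling 3 of 13 rose and 3 fell, *Vdr* by 0.36 (SE 0.062) among the latter. Among the transcription factors 1 of 10 rose and 1 fell.

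**Figure D5:**
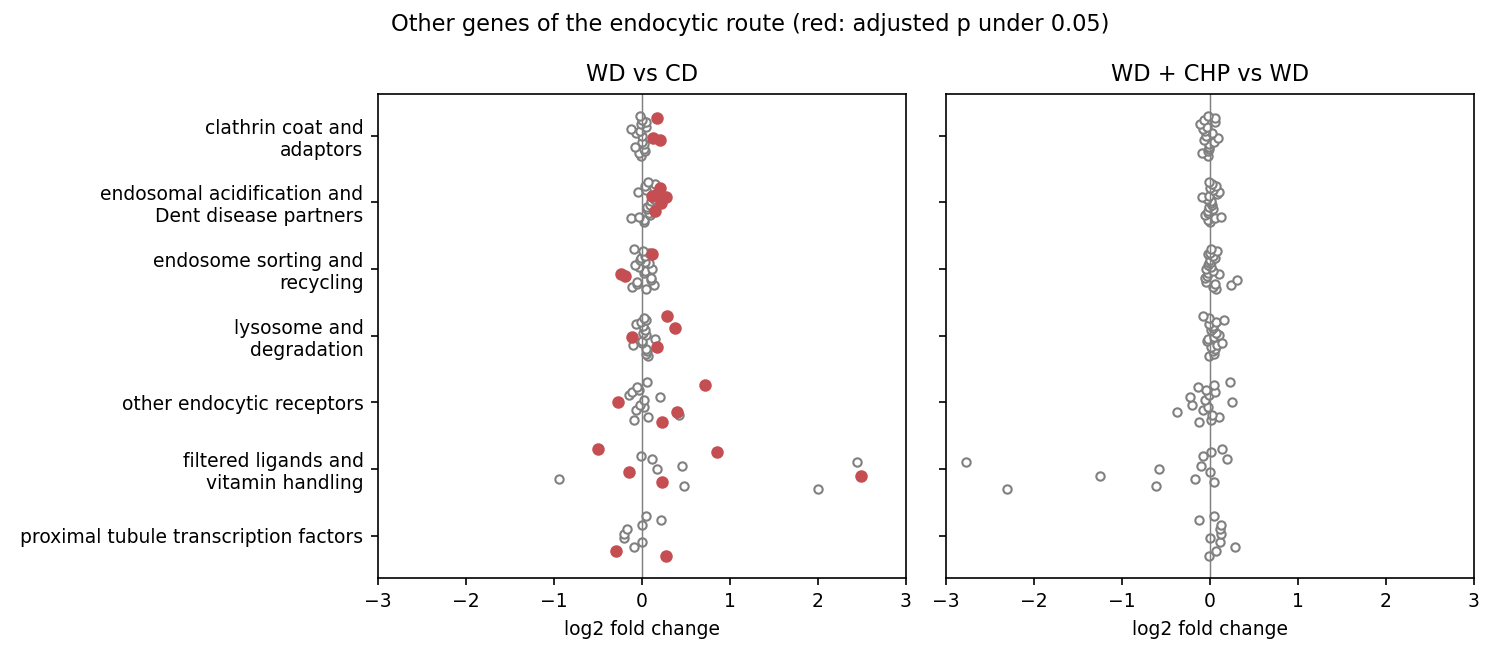
Log2 fold change of the genes of 7 lists in WD vs. CD (left) and WD + CHP vs. WD (right). Each point is 1 gene and red points have an adjusted p under 0.05, 27 of 124 on the left and 0 on the right.

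The genes whose log2 CPM followed each gene most closely over the 15 libraries were found among 9575 genes, as a description. *Lrp2* went with *Erbin* (r = 0.953), *Vps13b* (0.907) and *Rsf1* (0.906). *Clcn5* went with *Vldlr* (0.970), *Met* (0.957) and *Aff4* (0.945), and *Cubn* with *Cnot6l* (0.924), *Rbm33* (0.883) and *Repin1* (0.883). Of these 9 genes, all but *Erbin*, *Met* and *Repin1* have exons of over 10 kb in all. The short partner *Amn* went with *Fuca1* (0.855), *Glmp* (0.834) and *Mrpl38* (0.826), and *Lrpap1* with *Galnt1* (0.878) and *Glb1* (0.872). *Dab2* went with *Tpcn1* (0.897), *Ubap2l* (0.815) and *Patl1* (0.804), and *Fcgrt* with *Rhog* (0.840), *Prdx6* (0.831) and *Ube2l3* (0.825). Among the 7, *Amn* and *Lrpap1* had r = 0.726 and *Lrp2* and *Clcn5* 0.664. *Lrp2* and *Cubn* had 0.394, and *Cubn* and *Amn* -0.522. With each library taken relative to its group mean, these were 0.739, 0.706, 0.355 and -0.717 in the same order. The 15 libraries span the 3 groups, so the first set of values also holds differences between groups.

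In gastrocnemius *Lrp2* had 0 to 5 counts per library, *Amn* 0 to 2 and *Cubn* 1 to 10, all under the filter. *Dab2* was at 13.8 ± 2.19 CPM there, *Clcn5* at 1.94 ± 0.382, *Lrpap1* at 35.6 ± 1.41 and *Fcgrt* at 34.3 ± 2.17 (n = 15). The mean in kidney was 56.8, 59.6, 10.8 and 5.17 times that of gastrocnemius. The receptors and *Amn* were thus at the floor where the partners were still measured. The tables were normalised separately, so these ratios are set across tables and carry no test.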

How the data were processed

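The authors deposited unnormalised read counts per gene for 15 kidney and 15 gastrocnemius libraries, from polyA-enriched RNA read on BGISEQ-500, cleaned with SOAPnuke and aligned with STAR 2.7.3a (GRCm38, per the submitters' processing notes). The counting tool is not given in the sources used here. Genes were kept by filterByExpr (minimum count 10). Counts were scaled by TMM and the 3 kidney groups were fitted in 1 model with edgeR 4.0.16 in R 4.3.3 (quasi-likelihood F test, two-sided, Benjamini-Hochberg over 17120 genes, threshold 0.05). Standard errors were derived from the F statistic of each fold change. Exonic lengths are exon unions from GENCODE M21, which held 54809 of the 54838 identifiers. The fit was also run on counts simulated from its own estimates of level and spread, and the outcome is not given here. Libraries of a group differed by more than counting error (chi-square per gene 9.06 to 25.4). Named are all 7 genes, up to 4 called genes per list by smallest p, and the 3 genes most like each of the 7, apart from items that are not reported here. *Miox*, *Slc13a3*, *Slc27a2*, *Kap* and the markers of other cell types were chosen after their values were seen. Members and lists were chosen with earlier results of these data known. The alternatives were limma-voom (limma 3.58.1), DESeq2 1.42.0, other scalings and filters, a replicate block, a correction for length and GC content, only the 2 groups compared, and each library left out.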

Additional observations from a re-analysis of the deposited data

Results flagged for a closer look

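Of 42 groups of 5 libraries searched, 2 held a library far from the others, where chance gives about 1 in 20. *Fcgrt* in kidney WD replicate 1 was at 198 CPM, above the other WD libraries at 177 to 179. Without it the log2 fold change of *Fcgrt* went from 0.07 to 0.04 in WD vs. CD and from -0.03 to 0.0032 in WD + CHP vs. WD. *Clcn5* in gastrocnemius WD + CHP replicate 4 was at 1.18 CPM, below the others at 1.89 to 2.16.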

How the results depend on the processing

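All settings tried kept the sign of the difference between the long receptors and the other genes. Over single libraries left out, it ranged from -0.33 to -0.23 in WD vs. CD, from 0.092 to 0.188 in WD + CHP vs. WD and from -0.17 to -0.12 in WD + CHP vs. CD. It moved beyond these ranges with the length and GC correction, with or without the block, to 0.064 in WD + CHP vs. WD (from 0.13) and to -0.20 in WD + CHP vs. CD (from -0.14), and with only short partners under 5 kb, to -0.087 in WD + CHP vs. CD. For WD vs. CD, 2 of the 7 genes were called with total count scaling, with the length and GC correction and with that correction plus the replicate block, *Lrp2* being the gene added, and 1 to 2 without single libraries. For WD + CHP vs. WD, 1 was called by DESeq2 (*Lrp2*) and 0 to 1 without single libraries. For WD + CHP vs. CD, 1 was called (*Clcn5*) with DESeq2's size factors or no filter, and 1 to 2 without single libraries. The cause was not tested. Some fold changes near 0 turned their sign. *Amn* in WD vs. CD was -0.0022 with total count scaling, -0.032 with the length and GC correction, -0.033 with that and the replicate block, and -0.0091 to 0.055 without single libraries. *Lrpap1* there was -0.033 to 0.0090 without single libraries, positive without CD replicate 2 (0.0040) or WD replicate 2. *Amn* in WD + CHP vs. WD was -0.020 with total count scaling and -0.017 to 0.043 without single libraries, with -0.016 without WD replicate 2. *Fcgrt* in WD + CHP vs. WD was 0.018 and 0.019 with the length and GC correction, alone and with the block, and -0.043 to 0.0032 without single libraries. With total count scaling in WD + CHP vs. CD, *Amn* was -0.022, *Lrpap1* -0.024 and *Fcgrt* -0.013.

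Same-numbered libraries correlated from -0.0907 to 0.144, so the numbers do not pair the samples. With the replicate block alone 1, 0 and 2 of the 7 genes were called in the 3 comparisons, and calls over all genes went from 1652 to 1582, from 18 to 70 and from 2070 to 1970. DESeq2 called 194 genes in WD + CHP vs. WD and the length and GC correction 5. Total count scaling moved the share of higher calls in WD + CHP vs. CD from 51.7% to 26.7%. Depth was no limit for the 7 genes in kidney, whose lowest count was 3313.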
